A study of Mus musculus with 20 samples.

Results

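The genes described here encode the nuclear part of oxidative phosphorylation, the machinery of the inner mitochondrial membrane that turns nutrients into ATP. Members were the listed genes whose symbols name a subunit of complexes I to V (Nduf, Sdh, Uqcr, Cox4 to Cox8 and Atp5 symbols) without a pseudogene suffix, and 88 of 19807 genes met this rule. They comprised 36 genes of complex I, 4 of complex II, 8 of complex III and 18 of complex IV. Another 17 were placed in complex V by symbol, among them Atp5s and Atp5sl, which are not its subunits, and 4 were complex I assembly factors. The remaining gene, Cox4nb, is named for its neighbour Cox4i1 and belongs to the endoplasmic reticulum membrane complex, so the counts below cover the other 87. Genes of the mitochondrial genome were not analysed here, because none of the rows used lay on that chromosome.

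Complexes I and II take electrons from NADH and succinate, complex III passes them to cytochrome c, complex IV hands them to oxygen, and complex V uses the resulting proton gradient to make ATP. Most subunits are built in every tissue from a single gene, while several complex IV subunits exist as pairs of isoforms, the second of which is known from heart and skeletal muscle, from lung and smooth muscle, from testis or from cells short of oxygen. In skin, keratinocytes near the surface rely heavily on glycolysis, and growing embryonic tissue needs mitochondria for both energy and building blocks.

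RNA was sequenced separately from the epidermis and the dermis of 3 kinds of mouse skin, all of mixed strain. Shh wounds (3 libraries per tissue) came from K14-CreER; LSL-Shh mice 4 to 5 weeks old, in which the keratin 14 promoter drives a tamoxifen-dependent Cre in basal epidermis, so that Sonic hedgehog (Shh), a secreted signal, is switched on in epithelial cells. E14.5 skin (4 libraries per tissue) was unwounded skin of wild type E14.5 embryos, the stage at which hair placodes form. WT wounds (3 libraries per tissue) came from wild type mice 4 to 5 weeks old, and both kinds of wound were collected 2 days after the scab detached. Control mice received tamoxifen as well. Libraries may hold wounds of several mice, so p-values measure the spread between these samples. Embryonic skin differed from the wounds in age, wounding and sequencing depth at once, and these cannot be told apart here.

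A gene's level is given in CPM, its reads scaled to a library total of 1000000. Libraries held 3920969 to 10810590 reads in Shh wounds, 15663677 to 18745431 reads in E14.5 skin and 1407498 to 7354990 reads in WT wounds. In 4 wound libraries fewer than 15000 genes had a read (Tg-9233-Derm of the Shh wounds, and Con-9229-Derm, Con-9097-Epi and Con-9229-Epi of the WT wounds). Mir5105 alone took 177144 CPM in Con-9229-Derm and 62839 CPM in Con-9229-Epi, against 7073 to 23333 CPM in the other libraries, which lowers the CPM of every other gene in those 2. Dermal fibroblast markers summed to 178238 to 288531 CPM in Shh wound dermis, 20324 to 22568 CPM in E14.5 dermis and 205808 to 240806 CPM in WT wound dermis, so that a wound dermis library leaves fewer of its reads to every other gene. Col1a1 and Col3a1 carried this gap. Pdgfra had 384 to 601 CPM in E14.5 dermis and 175 to 411 CPM in WT wound dermis, and Dcn and Lum overlapped between those groups. Keratinocyte markers summed to 78465 to 85165 CPM in Shh wound epidermis, 9858 to 14224 CPM in E14.5 epidermis and 72690 to 90459 CPM in WT wound epidermis, and reached at most 2582 CPM in any dermis library. Krt1 and Krt10 carried the epidermal gap. Against WT wound epidermis, Krt14 was lower in E14.5 epidermis, Krt5 overlapped, and Trp63 was higher (544 to 581 CPM against 139 to 400 CPM). The sums thus do not count cells of a type. Erythroid markers summed to 2865 to 8481 CPM in E14.5 dermis against 16.8 to 41.2 CPM in WT wound dermis. Skeletal muscle markers summed to 1540 to 6263 CPM against 24.0 to 51.9 CPM in those groups, where Myh1 and Myh2 overlapped. In epidermis the muscle markers summed to 170 to 670 CPM in E14.5 skin against 0 to 4.21 CPM in WT wounds. The part of such cells in the levels below was not tested. Because a few genes took many of the wound reads, the counts of embryonic against wound skin are given also after TMM scaling. That scaling sets libraries by the bulk of their genes. In bulk tissue, fewer cells of a type and less RNA per cell cannot be told apart.

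The summed level of the 87 genes was highest in embryonic skin in both tissues. In epidermis the sum was 4545, 4322 and 3612 CPM in Shh wounds, 10145, 10446, 10418 and 10308 CPM in E14.5 skin, and 4088, 3590 and 3011 CPM in WT wounds. In dermis it was 2971, 2348 and 2051 CPM in Shh wounds, 8463, 7765, 8678 and 9371 CPM in E14.5 skin, and 3429, 2440 and 2590 CPM in WT wounds. No embryonic library overlapped any wound library in either tissue, whereas Shh and WT wounds overlapped in both. After TMM scaling over the 20 libraries the embryonic means were smaller, at 7378 CPM in E14.5 epidermis against 4123 CPM in WT wound epidermis, and at 6541 CPM in E14.5 dermis against 3841 CPM in WT wound dermis. The genes Atp5a1 and Atp5b, which encode the alpha and beta subunits of the catalytic head of ATP synthase, had the largest CPM of the members.

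**Figure D1:**
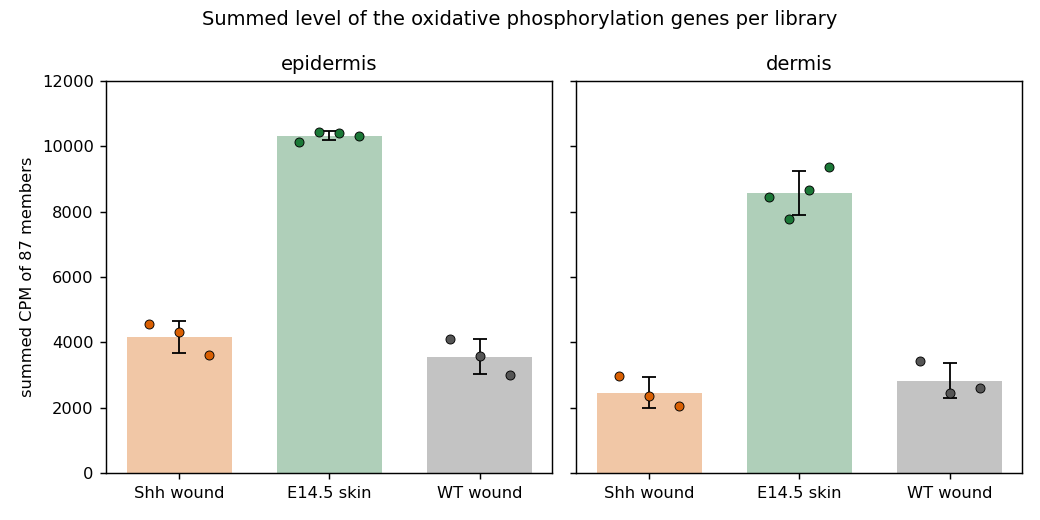
Summed CPM of the 87 members in each library (points), with the group mean (bars) and SD (error bars), for epidermis and dermis; n = 3 for Shh and WT wounds and n = 4 for E14.5 skin. The E14.5 libraries lie between 7765 and 10446 CPM, and the wound libraries between 2051 and 4545 CPM.

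The comparison of E14.5 skin with WT wounds asks how embryonic skin differs from a healing wound. In dermis 79 of the 87 members were higher in E14.5 skin and 1 was lower by limma with Benjamini-Hochberg adjustment, where 49.4% of all genes tested were called higher and 6.63% lower. The median log2 fold change of the members was 1.64, beside 0.78 over all genes tested. In epidermis 71 members were higher and 1 was lower, beside 47.7% and 11.4% of all genes tested, and the median was 1.62 beside 0.66. TMM scaling lowered these counts to 48 higher and 2 lower in dermis, where 25.5% and 13.98% of all genes were then called, and to 56 higher and 2 lower in epidermis, beside 33.6% and 16.3%. The medians after TMM scaling were 0.94 in dermis and 1.12 in epidermis, and those over all genes 0.26 and 0.34. By CPM 70 genes were called higher in both tissues, 98.6% of the epidermal list and 88.6% of the dermal list. After TMM scaling 39 genes were, 69.6% of the epidermal list and 81.25% of the dermal list. The CPM lists held most of the 87 members, so a large overlap follows from their size alone.

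Among subunits of complex I, the entry point for NADH electrons, 31 of 36 were higher by CPM in E14.5 epidermis than in WT wound epidermis. In dermis 32 of 36 were higher, and none was lower in either tissue. Fewer of them were called higher after TMM scaling in each tissue. The shares of all genes called, for this complex and the others, are those given above. Ndufs4, a small accessory subunit whose loss in humans and mice causes Leigh syndrome, had 83.9, 93.4, 90.4 and 83.0 CPM in E14.5 epidermis against 19.0, 14.3 and 11.2 CPM in WT wound epidermis. The embryonic libraries lay far above the wound libraries there, and the same held in dermis, where Ndufs4 had 87.4, 73.9, 89.0 and 79.7 CPM in E14.5 skin against 18.2, 14.7 and 14.9 CPM in WT wounds. Its log2 fold change was 2.51 ± 0.19 (SE) in epidermis (adjusted p = 2.7e-05) and 2.31 ± 0.17 in dermis (adjusted p = 3.7e-05). The rises that were largest in the complex belonged to accessory subunits of the membrane arm. They were Ndufb2 (2.95 on the log2 scale) and Ndufc2 (2.85) in epidermis, and Ndufb4 (2.79) and Ndufb6 (2.58) in dermis. Ndufb2 varied widely among the WT wound epidermis libraries and was not called after TMM scaling (2.49, adjusted p = 0.052). Ndufb4 shares 37.0% of its transcript's stretches of 50 bases with other annotated genes, so part of its reads may belong to them. Core subunits passed the test by CPM, among them Ndufv1, which binds NADH (0.75 in epidermis and 0.90 in dermis), and Ndufs1, which carries iron-sulphur clusters (0.82 in epidermis and 1.76 in dermis), but neither passed after TMM scaling (Ndufv1 0.22 and 0.11, Ndufs1 0.29 and 0.98). Ndufa1 (0.47 in epidermis and 0.41 in dermis), Ndufs5 and Ndufv3 did not pass the test in either tissue.

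Complex II, succinate dehydrogenase, is also an enzyme of the citric acid cycle, and its 4 genes were higher in E14.5 skin in both tissues under both scalings. Sdhd, a membrane anchor of the complex, had 139, 131, 128 and 138 CPM in E14.5 epidermis against 17.8, 23.4 and 17.3 CPM in WT wound epidermis, a log2 fold change of 2.73 ± 0.14 (limma adjusted p = 5.6e-06). In dermis Sdhd had 155, 136, 167 and 196 CPM in E14.5 skin against 34.3, 28.8 and 73.2 CPM in WT wounds (1.93 ± 0.30, adjusted p = 0.00099). The iron-sulphur subunit Sdhb rose by 2.71 in epidermis and 1.64 in dermis on the log2 scale, the other anchor Sdhc by 2.20 and 1.68, and the flavoprotein Sdha by 1.60 and 1.81.

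In complex III, cytochrome c reductase, 7 of 8 genes were higher by CPM in E14.5 epidermis and 8 of 8 in E14.5 dermis. After TMM scaling Uqcr10, Uqcrc1, Uqcrc2 and Uqcrfs1 were still called in both tissues. Uqcr11 was then called in dermis alone, and Uqcrh and Uqcrq in epidermis alone. Uqcrc1, a core protein gene, had 278, 285, 290 and 281 CPM in E14.5 epidermis against 47.5, 82.1 and 64.2 CPM in WT wound epidermis, and 190, 212, 203 and 217 CPM in E14.5 dermis against 44.0, 43.7 and 32.7 CPM in WT wound dermis. Its log2 fold changes were 2.15 ± 0.17 in epidermis (limma adjusted p = 3.8e-05) and 2.34 ± 0.16 in dermis (adjusted p = 2.7e-05). Uqcr11, a small subunit, had a larger fold change in dermis (2.65) at lower levels, with 13.02, 10.9, 13.2 and 16.6 CPM in E14.5 skin against 2.50, 2.40 and 0 CPM in WT wounds. The hinge protein gene Uqcrh rose by 1.27 in epidermis, and its dermal rise of 0.87 was not called after TMM scaling (0.08, adjusted p = 0.79).

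In complex V, ATP synthase, 16 of the 17 genes placed there by symbol were higher by CPM in E14.5 epidermis and 17 of 17 in E14.5 dermis. These counts include Atp5s and Atp5sl, which are not subunits of the enzyme. After TMM scaling Atp5a1, Atp5b, Atp5f1, Atp5g3 and Atp5o were still called higher in both tissues, and Atp5l in dermis alone. Atp5c1, Atp5d, Atp5e, Atp5g1, Atp5j and Atp5k were then called in epidermis alone. Atp5b had 1448, 1532, 1566 and 1513 CPM in E14.5 epidermis against 537, 460.0 and 452 CPM in WT wound epidermis, and 1097, 1047, 1123 and 1256 CPM in E14.5 dermis against 325, 267 and 242 CPM in WT wound dermis. The log2 fold change of Atp5b was 1.65 ± 0.09 in epidermis and 2.03 ± 0.17 in dermis. The rises were uneven within the enzyme. Atp5f1, a subunit of the peripheral stalk, rose most in dermis (3.79 ± 0.37, limma adjusted p = 0.00011), with 110, 79.5, 112 and 103 CPM in E14.5 skin against 11.4, 7.20 and 2.84 CPM in WT wounds, although 23.2% of its transcript's stretches occur in other annotated genes. Atp5g3, one of the genes for the c-ring that turns with proton flow, rose by 2.57 in epidermis and 2.94 in dermis. Atp5d, the delta subunit, rose by 0.86 and 1.01, of which the dermal rise was not called after TMM scaling (0.22, adjusted p = 0.505). The share of complex V in the members' summed CPM was 44.4% ± 0.486 in E14.5 epidermis (SD, n = 4) against 38.8% ± 2.31 in WT wound epidermis (n = 3), and 40.6% ± 0.416 in E14.5 dermis against 35.8% ± 0.830 in WT wound dermis, and the ranges of the groups did not overlap in either tissue.

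The assembly factors Ndufaf1, Ndufaf2 and Ndufaf4, which help to build complex I and are not part of the finished enzyme, were higher in E14.5 skin in both tissues, while Ndufaf3 was not called in either (0.97 in epidermis and 0.60 in dermis). Ndufaf4 had 29.6, 34.5, 34.2 and 34.9 CPM in E14.5 epidermis against 0, 4.08 and 7.96 CPM in WT wound epidermis, the library at 0 being the sparse library Con-9097-Epi. Its log2 fold change was 3.26 ± 0.67 there (limma adjusted p = 0.0037) and 2.18 ± 0.26 in dermis (adjusted p = 0.00025).

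**Figure D2:**
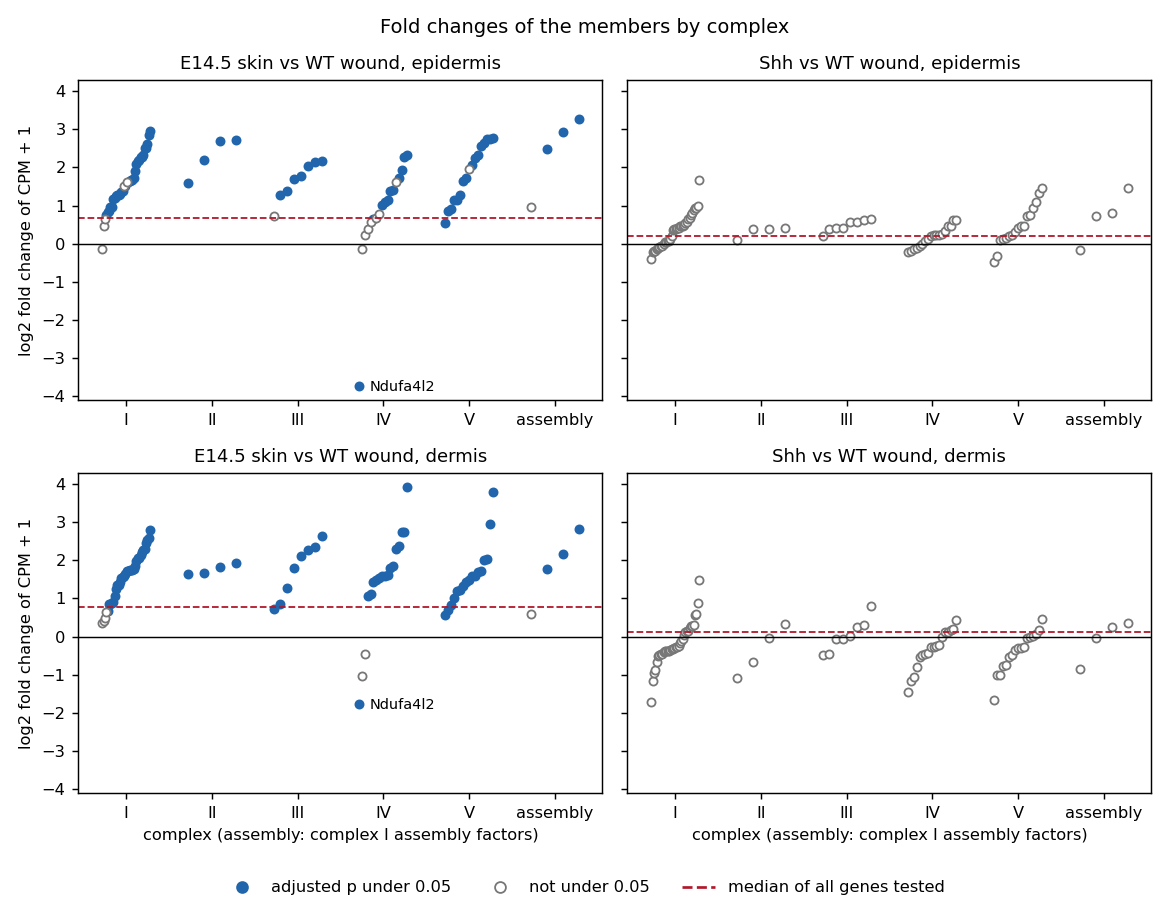
Log2 fold change of CPM + 1 for each member (points), grouped by complex, for E14.5 skin against WT wounds (left) and Shh against WT wounds (right) in epidermis (top) and dermis (bottom); filled points passed limma at an adjusted p of 0.05 and the dashed line is the median of all genes tested. The embryonic members lie mostly above the dashed line with Ndufa4l2 far below it, and no member passed in Shh against WT wounds.

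Since these genes moved together, the 250 bases before their annotated starts were searched for short motifs of factors known to act on nuclear genes of mitochondria. RefSeq windows on GRCm38.p6 were matched for 73 members, with 79 windows in all. The motif GCGCATGC of NRF1, searched on both strands, occurred in 11.4% of member windows and in 2.26% of the 32851 windows of all genes. The motif CCGGAAG of ETS factors such as GABPA occurred in 16.5% against 6.91%, AAGATGGC of YY1 in 2.53% against 1.56%, TCAAGGTCA of estrogen-related receptors in 1.27% against 0.387%, and ACGTG, the core of hypoxia-inducible factor sites, in 24.1% against 16.6%. A match is a description and not a bound site. The windows below were picked from members that had a match of NRF1 or ETS factors and also a large rise in their complex. They do not link the motifs to the size of a rise. Ndufb2, Ndufc2, Ndufb4, Atp5f1 and Uqcrc1, named above for their rises, are not among the members with either match, though 15 members had no window. The windows are written 5′ to 3′ on the strand of the gene, shortened where needed so as not to reach an annotated exon. The match is in capitals (CCGGAAG or its reverse complement in the first 3, and in Ndufaf4 a palindromic run that matches GCGCATGC on both strands).
Ndufb6, complex I, chr4:40279422-40279671, minus strand: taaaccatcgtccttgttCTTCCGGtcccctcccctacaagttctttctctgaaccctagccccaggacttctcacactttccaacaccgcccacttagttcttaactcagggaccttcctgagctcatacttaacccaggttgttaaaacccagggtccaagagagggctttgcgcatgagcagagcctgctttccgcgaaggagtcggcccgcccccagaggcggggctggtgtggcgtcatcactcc
Uqcr11, complex III, chr10:80406831-80407071, minus strand: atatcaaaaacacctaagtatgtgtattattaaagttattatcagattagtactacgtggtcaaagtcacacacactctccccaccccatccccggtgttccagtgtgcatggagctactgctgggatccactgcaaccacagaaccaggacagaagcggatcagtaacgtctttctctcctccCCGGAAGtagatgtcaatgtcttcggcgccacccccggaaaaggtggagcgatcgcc
Atp5e, complex V, chr2:174464106-174464351, minus strand: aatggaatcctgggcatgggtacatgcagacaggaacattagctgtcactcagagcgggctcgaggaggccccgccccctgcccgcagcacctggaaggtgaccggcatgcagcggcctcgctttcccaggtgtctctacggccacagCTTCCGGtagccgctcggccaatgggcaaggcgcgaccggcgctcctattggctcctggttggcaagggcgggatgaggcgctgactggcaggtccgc
Ndufaf4, assembly factor, chr4:24897833-24898082, plus strand: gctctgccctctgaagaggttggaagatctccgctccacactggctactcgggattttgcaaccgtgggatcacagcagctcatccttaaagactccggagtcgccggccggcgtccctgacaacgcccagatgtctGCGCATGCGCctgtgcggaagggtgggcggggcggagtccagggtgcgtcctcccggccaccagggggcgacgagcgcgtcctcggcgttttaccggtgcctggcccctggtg
Ndufb6 had 65.3, 50.4, 49.2 and 55.3 CPM in E14.5 epidermis against 8.26, 15.4 and 10.8 CPM in WT wound epidermis, and its match ended 226 bases before the start.

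Complex IV, cytochrome c oxidase, was the only complex with a member called lower in E14.5 skin by CPM, although 16 of its 18 log2 fold changes were positive in epidermis and 15 in dermis. In E14.5 skin against WT wounds 10 of its 18 genes were higher and 1 was lower in epidermis, and 15 were higher and 1 was lower in dermis. After TMM scaling Cox4i1, Cox6a1, Cox6a2, Cox6b2, Cox7a2 and Cox8a were still called higher in both tissues. Cox5b, Cox8b and Ndufa4 were then called higher in dermis alone, and Cox5a, Cox6c and Cox7b in epidermis alone. Cox4i1, the common isoform of subunit 4, was higher in E14.5 skin by 1.93 ± 0.19 in epidermis (limma adjusted p = 9.1e-05) and by 1.44 ± 0.21 in dermis (adjusted p = 0.00069). The share of complex IV in the members' summed CPM was 11.6% ± 0.189 in E14.5 epidermis (SD, n = 4) against 18.2% ± 1.47 in WT wound epidermis (n = 3), and 13.4% ± 0.273 in E14.5 dermis against 15.6% ± 1.64 in WT wound dermis. Much of the epidermal gap came from a single gene, Ndufa4l2, without which the share was 11.4% ± 0.190 in E14.5 epidermis against 13.8% ± 1.21 in WT wound epidermis, still without overlap, and 13.3% ± 0.284 in E14.5 dermis against 14.49% ± 1.42 in WT wound dermis, with overlap. The gene called lower was the same in both tissues.

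That gene was Ndufa4l2, which encodes a paralogue of the complex IV subunit NDUFA4 and is known as a target of hypoxia-inducible factor 1 whose product lowers complex I activity. In epidermis Ndufa4l2 had 173, 218 and 180.0 CPM in Shh wounds, 9.07, 8.30, 23.7 and 14.4 CPM in E14.5 skin, and 236, 165 and 151 CPM in WT wounds. In dermis it had 29.8, 25.0 and 18.6 CPM in Shh wounds, 7.52, 10.2, 8.35 and 11.8 CPM in E14.5 skin, and 51.1, 34.1 and 22.7 CPM in WT wounds. Every wound library thus lay above every embryonic library of its tissue. The log2 fold change of E14.5 skin over WT wounds was -3.73 ± 0.35 in epidermis (limma adjusted p = 8.2e-05) and -1.77 ± 0.32 in dermis (adjusted p = 0.0019), and after TMM scaling -4.24 and -2.52. In a test of the difference itself, the epidermal minus the dermal log2 fold change of Ndufa4l2 was -1.96 ± 0.49 (limma adjusted p = 0.011), a call that was lost without the sparse libraries (adjusted p = 0.065), which left a single WT epidermis library.

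Ndufa4, the common subunit, showed another pattern. In dermis it had 8.36, 7.12 and 4.85 CPM in Shh wounds, 56.4, 50.5, 60.4 and 58.5 CPM in E14.5 skin, and 10.7, 7.73 and 12.1 CPM in WT wounds, so that embryonic dermis stood clear of both wounds (E14.5 over WT 2.38 ± 0.21, limma adjusted p = 6.9e-05). In epidermis it had 82.1, 53.1 and 42.3 CPM in Shh wounds, 34.8, 49.3, 45.6 and 49.1 CPM in E14.5 skin, and 67.2, 46.5 and 37.9 CPM in WT wounds, and the groups overlapped (-0.15 ± 0.23, adjusted p = 0.59). After TMM scaling this epidermal difference was called lower in E14.5 skin (-0.67, adjusted p = 0.017). The epidermal and dermal differences of Ndufa4 were themselves different (-2.53 ± 0.32, adjusted p = 6.5e-05).

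The log2 ratio of Ndufa4l2 to Ndufa4, each as CPM + 1, depends on the scaling of a library only through the pseudocount of 1. In epidermis it averaged 1.72 ± 0.56 in Shh wounds (SD, n = 3), -1.72 ± 0.63 in E14.5 skin (n = 4) and 1.86 ± 0.10 in WT wounds (n = 3). In dermis it averaged 1.71 ± 0.03 in Shh wounds, -2.47 ± 0.30 in E14.5 skin and 1.67 ± 0.71 in WT wounds. Embryonic and wound libraries did not overlap in this ratio in either tissue. Per kilobase of their longest coding transcripts, the mean level of Ndufa4l2 and Ndufa4 was 204 and 97.0 CPM in Shh wound epidermis, 14.9 and 73.3 CPM in E14.5 epidermis, and 197 and 82.8 CPM in WT wound epidermis, so the order of the pair was reversed between wound and embryo. Neither transcript shares a stretch of 50 bases with another annotated gene.

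**Figure D3:**
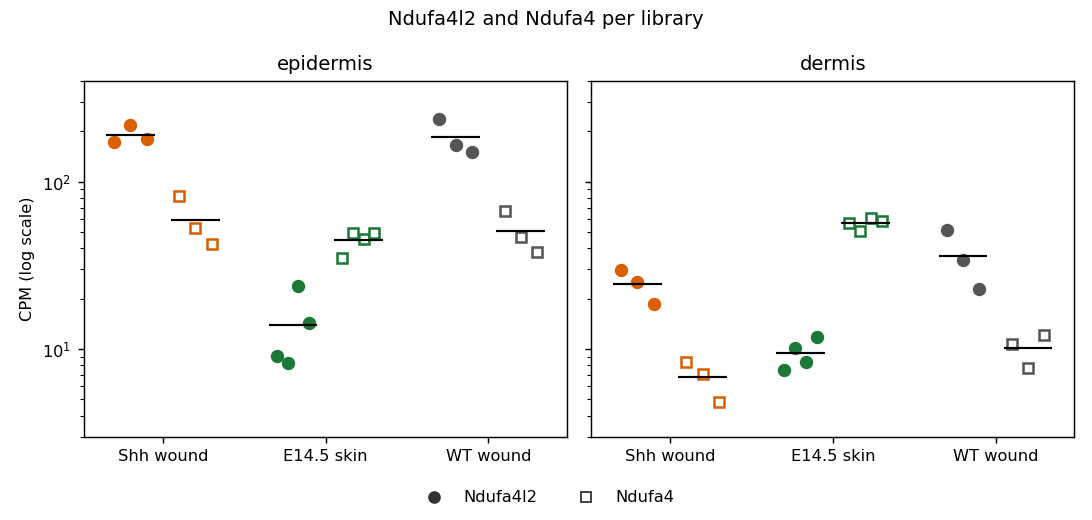
CPM of Ndufa4l2 (filled circles) and Ndufa4 (open squares) in each library on a log scale, with lines at the group means, for Shh wounds, E14.5 skin and WT wounds in epidermis and dermis. Ndufa4l2 lies above Ndufa4 in every wound library and below it in every E14.5 library.

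Isoforms of complex IV known from single tissues were looked at apart. Among them, Cox6a2 and Cox6b2 were called higher in E14.5 skin than in WT wounds in both tissues under both scalings. Cox4i2, the isoform of subunit 4 known from lung and smooth muscle, was a dermal gene. It had 8.85, 5.87 and 2.55 CPM in Shh wound dermis, 15.6, 15.6, 19.3 and 14.9 CPM in E14.5 dermis and 3.93, 4.00 and 6.39 CPM in WT wound dermis, and at most 1.21 CPM in any epidermis library. Epidermis was lower than dermis in E14.5 skin (-3.16 ± 0.16, limma adjusted p = 1.0e-07), in Shh wounds (-2.22 ± 0.47, adjusted p = 0.0077) and in WT wounds (-2.22 ± 0.68, adjusted p = 0.036). The Shh wound call was lost without Tg-9233-Epi (adjusted p = 0.055). The WT wound call was lost with the replicate block (adjusted p = 0.069), with edgeR (adjusted p = 0.123), without any one of 5 single libraries (Con-9097-Derm, Con-9098-Derm or any of the 3 epidermal ones, adjusted p = 0.067 to 0.152) and without the sparse libraries (adjusted p = 0.131). Cox4i2 was higher in E14.5 dermis than in WT wound dermis (1.61 ± 0.29, adjusted p = 0.0021), a call that was lost after TMM scaling (0.90, adjusted p = 0.059).

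Cox6a2 and Cox8b, the heart and skeletal muscle isoforms of subunits 6A and 8, were highest in E14.5 dermis. Cox6a2 had 15.4, 5.46, 13.4 and 33.0 CPM in E14.5 dermis libraries 3, 4, 5 and 7, at least 44.6-fold more than WT wound dermis, where the 3 libraries had no read. The bound takes 3 reads over the WT group's 7956065 reads, or 0.377 CPM. Cox8b had 6.35, 2.48, 5.94 and 10.6 CPM in the same embryonic libraries and no read in WT wound dermis, at least 16.9-fold more. Skeletal muscle markers (10 of 10 listed) summed to 2681, 1540, 2197 and 6263 CPM in those 4 libraries, in the same order of libraries as Cox6a2 and Cox8b, against 24.0 to 51.9 CPM in WT wound dermis. Their part in these differences was not tested. Cox6b2, a testis isoform of subunit 6B, had 6.93 to 9.62 CPM in E14.5 dermis and at most 2.15 CPM in WT wound dermis (2.31 ± 0.44, limma adjusted p = 0.0025). Cox7a1, the muscle isoform of subunit 7A, did not pass between E14.5 skin and WT wounds in either tissue (0.57 in epidermis and -0.45 in dermis).

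**Figure D4:**
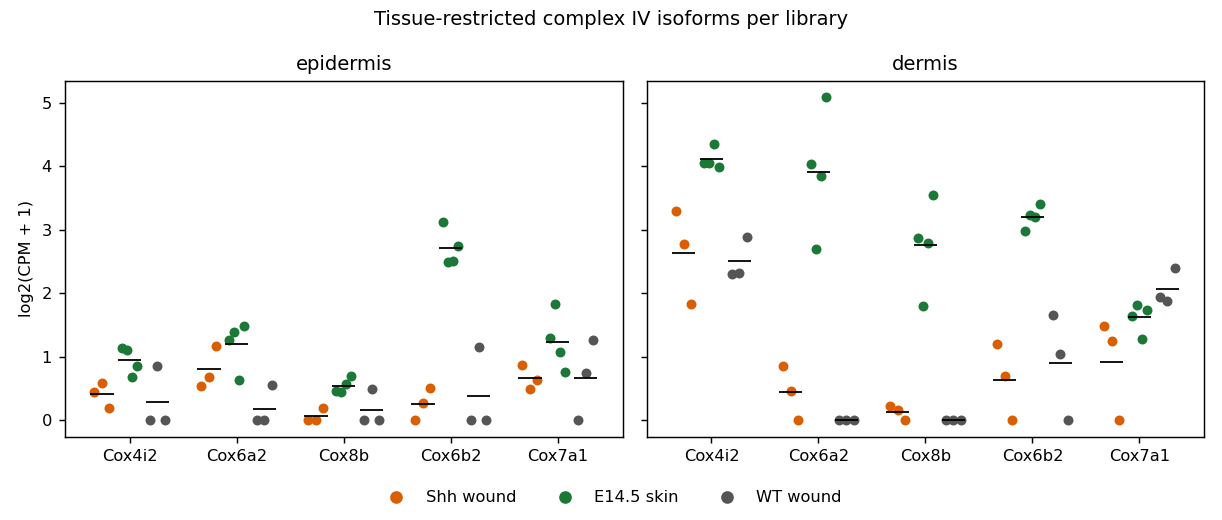
Log2(CPM + 1) of 5 tissue-restricted complex IV isoforms in each library, with lines at the group means, for Shh wounds, E14.5 skin and WT wounds in epidermis (left) and dermis (right). Cox4i2, Cox6a2 and Cox8b stand out in E14.5 dermis, and the 3 WT wound dermis libraries have no read of Cox6a2 or Cox8b.

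Whether epithelial Shh alters these genes in a wound was addressed by setting Shh wounds against WT wounds. No member was called in either tissue, and neither was any other gene under this test (0.0% higher and 0.0% lower of all genes tested in each tissue). Shh, the gene switched on in these mice, was thus not called either, although the authors report it raised in Shh wound epidermis. The absence of calls therefore cannot show that the members were unchanged. In epidermis 69 of the 87 members had a positive log2 fold change (79.3%, beside 71.6% of all genes tested), with a median of 0.38 beside 0.21 over all genes tested. At an unadjusted p under 0.05 there were 5 members (Ndufs8, Uqcrc1, Uqcrc2, Cox6a2 and Atp5e; 5.75%, beside 9.59% of all genes tested), and the smallest adjusted p was 0.395. Without the sparse libraries, which left a single WT epidermis library, the epidermal median was 0.11. In dermis 28 of the 87 members had a positive log2 fold change (32.2%, beside 61.9% of all genes tested). The dermal median was -0.27, beside 0.13 over all genes tested, and leaving out single libraries moved it between -0.42 and -0.011. The groups did not overlap for 4 members lower in Shh wound dermis (4.6%, beside 1.73% of all genes tested) and 1 higher (1.15%, beside 7.74%). At an unadjusted p under 0.05 there was 1 member (Atp5e; 1.15%, beside 2.81% of all genes tested), and the smallest adjusted p was 0.958. edgeR called 0 members in each tissue on the recovered reads (4 at an unadjusted p under 0.05 in each), as did DESeq2 (2 in epidermis and 4 in dermis). The shares of all genes under edgeR and DESeq2 are not given here, so these counts show nothing particular to the members.

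The members nearest to a call in epidermis were Ndufs8 and Uqcrc2. Ndufs8, a core complex I subunit with iron-sulphur clusters, had 35.9, 39.1 and 26.4 CPM in Shh wounds against 14.4, 19.3 and 17.3 CPM in WT wounds (0.94, limma adjusted p = 0.395). These groups did not overlap, as was so for 7 members higher in Shh wound epidermis (8.05%, beside 14.3% of all genes tested). A fit of the 3 kinds of epidermis together called Ndufs8 (limma adjusted p = 0.046), and the share of all genes called in that fit is not given here. Uqcrc2 had 76.5, 67.2 and 65.4 CPM in Shh wounds against 42.4, 48.7 and 50.1 CPM in WT wounds (0.56, adjusted p = 0.421). In dermis Atp5e, the epsilon subunit of ATP synthase, had 106, 52.1 and 46.4 CPM in Shh wounds against 178, 86.9 and 141 CPM in WT wounds (-1.01, adjusted p = 0.958), and the groups overlapped. The test of whether the Shh effect differed between epidermis and dermis called no member (0.0% of all genes in each direction, 5 members or 5.75% at an unadjusted p under 0.05, beside 3.44% of all genes tested) with a median difference of 0.53 over the members and 0.11 over all genes.

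Shh wounds were also set against E14.5 skin, to see how far they lie from embryonic skin. The 4 embryonic libraries are those used above, so the comparisons share samples. In epidermis 78 members were lower and 1 was higher in Shh wounds, where 51.7% of all genes tested were called lower and 19.6% higher, with a median of -1.34 beside -0.45 over all genes. In dermis 77 were lower and 1 was higher, beside 42.5% and 8.08%, with a median of -1.85 beside -0.61. The gene that was higher in Shh wounds was Ndufa4l2 in both tissues (3.79 ± 0.29 in epidermis and 1.28 ± 0.27 in dermis, limma adjusted p = 6.0e-07 and 0.0047). Sdhd had 32.5, 26.1 and 19.3 CPM in Shh wound epidermis against 139, 131, 128 and 138 CPM in E14.5 epidermis (-2.35 ± 0.15, adjusted p = 1.8e-07). After TMM scaling 59 members were lower and 4 were higher in Shh wound epidermis, the others being Ndufa4, Ndufv3 and Cox6b1, beside 35.7% and 30.6% of all genes tested, and 63 were lower and 1 was higher in Shh wound dermis, beside 23.7% and 15.1%.

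Epidermis and dermis of the same skin were compared last. In E14.5 skin 35 members were higher in epidermis and 7 were lower, beside 35.6% and 31.9% of all genes tested, with a median of 0.16. Of the 17 complex V genes 10 were among those higher, Atp5b by 0.42 and Atp5a1 by 0.62 on the log2 scale, and Ndufab1, the mitochondrial acyl carrier protein, rose most among complex I genes (1.09 ± 0.12, limma adjusted p = 1.4e-05). The 7 lower genes were Cox4i2, Cox6a2, Cox8b, Cox6b2, Ndufa4, Ndufa2 and Sdhd. Complex IV held 5 of these 7.

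In Shh wounds 18 members were higher in epidermis and 1 was lower, beside 19.6% and 13.4% of all genes tested, with a median of 0.77 beside 0.22 over all genes. Leaving out a single library moved the higher count between 9 (without Tg-9101-Epi) and 31 (without Tg-9101-Derm or without Tg-9233-Derm), and leaving out Tg-9233-Derm, the sparse library, gave 31 higher and 5 lower. Ndufa4 and Ndufa4l2 had the largest differences, 2.92 ± 0.33 and 2.93 ± 0.22 (limma adjusted p = 0.00032 and 4.2e-05). In WT wounds 3 members were higher in epidermis (Ndufa4l2, Ndufa4 and Ndufa10) and 2 were lower (Cox4i2 and Atp5e), beside 13.4% and 10.5%. Leaving out both sparse epidermal libraries and the sparse dermal one left a single epidermal library, and no member was then called. Ndufa4l2 was higher in the epidermis of each kind of wound than in dermis, and in E14.5 skin it was not called between tissues.

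The difference between E14.5 skin and WT wounds was itself tested between epidermis and dermis. It was larger in epidermis for Atp5e (1.504 ± 0.30, limma adjusted p = 0.0025) and Atp5c1 (1.43 ± 0.42, adjusted p = 0.026), and smaller or more negative in epidermis for Cox6a2, Ndufa4, Cox8b, Ndufa4l2 and Atp5f1, so 2 members were called higher and 5 lower, beside 8.46% and 12.7% of all genes tested. The call of Atp5c1, the gamma subunit of ATP synthase, was lost with the replicate block (adjusted p = 0.066) and without some single libraries (adjusted p up to 0.055). Without the sparse libraries, which left a single WT epidermis library, its difference was 0.41. Atp5e had 272, 270, 274 and 284 CPM in E14.5 epidermis against 39.8, 51.9 and 31.8 CPM in WT wound epidermis, and 329, 263, 322 and 314 CPM in E14.5 dermis against 178, 86.9 and 141 CPM in WT wound dermis.

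Other genes of mitochondria were described by lists. Beside these lists and those that follow, 47.7% of all genes tested were called higher and 11.4% lower in E14.5 epidermis against WT wounds. In dermis the shares were 49.4% and 6.63%. Between E14.5 skin and WT wounds, genes of mitochondrial ribosomal proteins, which translate the mitochondrial messages, were higher for 67 of 75 in epidermis and 69 of 75 in dermis and lower for none. Genes of the citric acid cycle and pyruvate dehydrogenase, which supply NADH and succinate, were higher for 15 and lower for 1 of 18 in epidermis, and higher for 16 of 18 in dermis. Protein import and carrier genes were higher for 17 of 18 in each tissue, with Tomm70a, an import receptor of the outer membrane, at 224 CPM in E14.5 epidermis against 38.8 CPM in WT wound epidermis (2.52, limma adjusted p = 8.6e-06). Mitochondrial gene expression factors were higher for 17 of 23 in epidermis and 18 of 23 in dermis, and other assembly factors for 20 of 24 and 23 of 24. Among regulators of biogenesis, 8 were higher and 1 lower of 15 in epidermis, and 12 were higher in dermis. TMM scaling lowered the higher counts to 56 in epidermis and 46 in dermis for mitochondrial ribosomal proteins, to 14 and 12 for the citric acid cycle, to 14 and 10 for import and carriers, to 10 in each tissue for mitochondrial gene expression, to 12 and 6 for other assembly factors, and to 4 and 7 for biogenesis regulators. The shares of all genes called after TMM scaling are given above with the members. In proportion, other assembly factors in dermis and biogenesis regulators in epidermis were then called higher no more often than all genes. Shh against WT wounds gave no call in any of these lists, nor among all genes.

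Glycolysis did not follow in epidermis. Of 19 glycolytic genes 8 were higher and 2 lower in E14.5 epidermis than in WT wound epidermis with a median of 0.43, and after TMM scaling 2 were higher and 5 lower with a median of -0.10, so the direction of the list depended on the scaling. In dermis 14 were higher and none lower with a median of 1.23, and after TMM scaling 9 were higher and 2 lower. The glycolytic genes Hk1 and Pfkp were far lower in E14.5 epidermis than in WT wound epidermis, unlike the 8 that were higher by CPM. Mean levels were 26.8 CPM against 182 CPM for Hk1 and 15.4 CPM against 307 CPM for Pfkp. In hypoxia response genes, 6 of 16 were higher and 6 lower in E14.5 epidermis, Egln3, an oxygen sensor, being at 20.1 CPM against 335 CPM in WT wound epidermis, while 10 of 16 were higher and none lower in E14.5 dermis. After TMM scaling 3 were higher and 7 lower in epidermis and 5 were higher and 4 lower in dermis, and the summed level of the list turned with the scaling, at 1047 CPM in E14.5 dermis against 674 CPM in WT wound dermis before it, and at 797 CPM in E14.5 dermis against 927 CPM in WT wound dermis after it. The log2 ratio of the members' summed CPM to that of the glycolytic genes was 0.78 to 1.53 in Shh wound epidermis, 2.52 to 2.72 in E14.5 epidermis and 0.56 to 1.47 in WT wound epidermis. In dermis it was 1.95 to 2.37 in Shh wounds, 2.76 to 2.96 in E14.5 skin and 2.19 to 2.62 in WT wounds. The same ratio to mitochondrial ribosomal protein genes stayed between 1.53 and 1.77 in the 20 libraries.

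**Figure D5:**
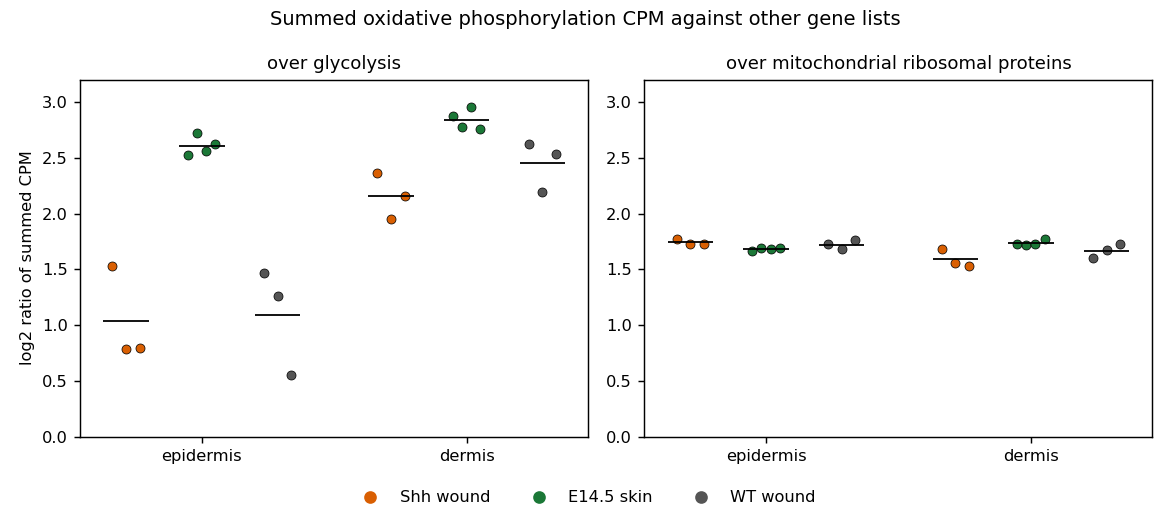
Log2 ratio of the summed CPM of the 87 members to the summed CPM of 19 glycolytic genes (left) and of 75 mitochondrial ribosomal protein genes (right) in each library, with lines at the group means; colours give Shh wounds, E14.5 skin and WT wounds within each tissue. The ratio to glycolysis is lowest in the wound epidermis libraries, at 0.56 to 1.53, while the ratio to ribosomal proteins varies from 1.53 to 1.77.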

How the data were processed

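Wound and embryonic skin was split into epidermis and dermis with EDTA, and ribosomal RNA-depleted, stranded total RNA libraries were sequenced. The deposited values are CPM, which the authors made with Bowtie, SAMtools and HTSeq on NCBIM37 (versions were not given in the sources used here). They sum to 1000000 over 19807 nuclear genes in each of 20 libraries. Low values were whole multiples of 1 read, so 100% of values gave whole reads (tolerance 0.01). The authors' own fold change, p-value and false discovery rate columns were not used, nor was 1 library column that matched no sample.

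Groups came from the GEO labels. Log2(CPM + 1) was compared with limma 3.58.1 (trend, R 4.3.3) between the groups of each comparison, over all genes with at least 1 read, with Benjamini-Hochberg adjustment and calls at 0.05; the difference between tissues was an interaction term. The fit was also run on simulated counts with the same dispersion for every gene, which does not mimic the uneven wound libraries. That run only checked that set fold changes were recovered at the median. Alternatives were TMM scaling, DESeq2 1.42.0 and edgeR 4.0.16 run on the recovered reads, pseudocounts of 0.5 and 5, a mean of at least 1 CPM, a replicate block, leaving out each library and, chosen after seeing the data, leaving out the sparse libraries. Tables and plots used Python 3.11.15, pandas 2.3.3 and matplotlib 3.10.9. CPM limits precision at low depth, and 1 read is worth more CPM in a shallow library. Shared sequence was measured as stretches of 50 bases occurring in other annotated genes.

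Members and lists were chosen with earlier results of these data known. Genes named were the tissue or condition isoforms of complex IV and, per comparison and complex, the called members of at least 1 CPM with the largest changes, or the smallest p where none was called; other members named were chosen after their values were seen. Same-numbered epidermis and dermis libraries were read as the same animal or pool: their deviations correlated at 0.067 to 0.312 in E14.5 skin, -0.012 to 0.388 in Shh wounds and 0.020 to 0.084 in WT wounds, and the replicate block called 20 members higher and 1 lower between tissues in Shh wounds. Genes of the mitochondrial genome were not analysed here.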

Additional observations from a re-analysis of the deposited data

Results flagged for a closer look

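Cox4i2 in E14.5 dermis had 19.31 CPM in replicate 5, set apart from the other 3 libraries at 14.9 to 15.6 CPM. Of 30 groups examined this was the 1 that stood out, and chance alone would set apart about 1 in 20.

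For 7 members the difference of E14.5 skin from WT wounds itself differed between tissues by limma (epidermal minus dermal log2 fold change). It was more negative in epidermis for Cox6a2 (-2.90), Ndufa4 (-2.53), Cox8b (-2.37), Ndufa4l2 (-1.96) and Atp5f1 (-1.56), and more positive for Atp5e (1.5) and Atp5c1 (1.43), the last of which was lost with the replicate block (adjusted p = 0.066). Cox6a2 and Cox8b had 5.46 to 33.0 CPM and 2.48 to 10.6 CPM in E14.5 dermis, beside a skeletal muscle marker sum of 1540 to 6263 CPM, whose part was not tested.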

How the results depend on the processing

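For the 31 results of named members that were followed through every alternative, no call changed direction. Of their 469 values, 448 kept their side of the threshold. Members called in the tissue difference of the embryonic effect were followed through the alternatives of that test. Other genes named in the text were followed under TMM alone, which ended the calls given beside them. Fitting the 3 kinds of epidermis together called 1 member higher in Shh than in WT wounds. For E14.5 skin against WT wounds, dermis gave 48 higher and 2 lower with TMM, 46 and 3 with edgeR, and 3 lower with DESeq2; epidermis gave 2 lower with TMM, 44 higher and 3 lower with edgeR, and 3 lower with DESeq2. Leaving out single libraries gave 1 to 2 lower in dermis. Shh wound epidermis had 4 members higher than E14.5 epidermis with TMM, edgeR or DESeq2, and 1 to 2 leaving out single libraries. Between tissues, leaving out single libraries gave 4 to 11 lower in E14.5 skin, 9 to 31 higher and 0 to 5 lower in Shh wounds, and 2 to 5 higher and 1 to 2 lower in WT wounds. In Shh wounds 2 were lower after a filter on mean CPM of 1, and without the sparse library 31 were higher and 5 lower. In WT wounds 4 were lower with TMM or edgeR, 1 with the replicate block, and 0 were called in either direction without the sparse libraries. The tissue difference in the embryonic effect had 4 higher with TMM, 1 with the replicate block, 1 to 5 leaving out single libraries, and 4 higher and 10 lower without the sparse libraries. The replicate block gave 36 higher and 7 lower between tissues of E14.5 skin.

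TMM scaling over 20 libraries gave summed means of 3070 CPM in Shh wound dermis, 6541 CPM in E14.5 dermis and 3841 CPM in WT wound dermis, and of 7378 CPM in E14.5 epidermis and 4123 CPM in WT wound epidermis. The log2 ratio of Cox4i2 to Cox4i1 was -6.65 in Shh wound epidermis, -7.57 in E14.5 epidermis and -6.29 in WT wound epidermis; a pseudocount of 0.5 gave -7.33, -8.002 and -7.11 in that order, and 5 gave -4.68, -5.96 and -4.25. In dermis a pseudocount of 5 gave -3.34 in Shh wounds, -3.98 in E14.5 skin and -3.70 in WT wounds. The ratio of Ndufa4l2 to Ndufa4 was 1.79 with 0.5 and 1.32 with 5 in Shh wound dermis, and -2.09 with 5 in E14.5 dermis. The causes were not tested. The alternative of CPM over nuclear genes alone was not run, since it equals the values used.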

Other observations

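Fatty acid oxidation genes, which feed electrons to the respiratory chain, were higher for 11 and lower for 1 of 16 in E14.5 epidermis against WT wound epidermis, and higher for 12 and lower for 1 of 16 in dermis. Of all genes tested, 47.7% were higher and 11.4% lower in epidermis, and 49.4% and 6.63% in dermis. After TMM scaling 7 were higher and 3 lower in epidermis, and 7 were higher and 1 lower in dermis. Acaa2, the last thiolase of the pathway, averaged 623 CPM in E14.5 epidermis against 66.6 CPM in WT wound epidermis. Between tissues of Shh wounds 10 of these genes were higher in epidermis and none was lower, beside 19.6% and 13.4% of all genes tested.

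Cox4nb, the gene of the endoplasmic reticulum membrane complex set apart above, had 64.8, 65.8, 71.5 and 61.3 CPM in E14.5 dermis against 28.2, 21.3 and 5.68 CPM in WT wound dermis (2.03, limma adjusted p = 0.005).

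Of the 87 members 49 shared no stretch of 50 bases with another annotated gene and 38 shared some. Atp5l shared the most, 68.5% of its stretches.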
